A study of Mus musculus with 6 samples.

Results

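Nts, C2cd4a, Rnf128, Myh7b and Ankrd36 are 5 genes, of 31771 in the count table, whose transcripts were close to absent from control spleens and present in every mutant spleen. They were picked by name for that pattern and for having no known part in blood, so the difference between the groups is described here and not tested. RNA was sequenced from spleen pieces of 6 mice of strain C57BL/6. The 3 mutants carried VEC-Cre, SB Transposase and onc2, and the 3 controls were WT at all of these. VEC-Cre is Cre recombinase under the promoter of VE-cadherin, an adhesion protein of endothelium, and such Cre also marks blood cells that descend from embryonic endothelium. SB Transposase moves the Sleeping Beauty transposon onc2, which can switch on or disrupt the genes it lands in. Controls with Cre or transposase alone, the age of the animals and the sites of transposon insertion were not analysed here.

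The 5 genes belong to different kinds of biology. Nts encodes the precursor of neurotensin and neuromedin N, peptides of neurons and of endocrine cells in the gut. C2cd4a encodes a small nuclear C2-domain protein best known from pancreatic islets. Myh7b encodes a myosin heavy chain of heart and slow muscle, and an intron of the gene holds the microRNA miR-499. Rnf128 encodes GRAIL, a membrane-anchored ubiquitin ligase. GRAIL is known from T cells, where it keeps activation in check (anergy), so the description of a gene without a blood role does not hold for Rnf128. Ankrd36 encodes an ankyrin-repeat protein for which no role is given here.

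Promoter sequence is shown for the 3 genes in which a search found letters other than the very common CACCC. The sequences are RefSeq's on GRCm38.p6, 5′ to 3′ on the strand of the gene, and all 5 genes matched one. Each starts 250 bases before the RefSeq start site and stops where GENCODE places the first exon. Capitals mark the letters searched for on either strand, and no marked stretches overlap. For the factor AP-1 these letters were TGANTCA, for GATA factors they were AGATAA, for KLF factors CACCC, and for the general start signal of transcription TATAAA.
Nts (chr10:102490487-102490668, minus strand): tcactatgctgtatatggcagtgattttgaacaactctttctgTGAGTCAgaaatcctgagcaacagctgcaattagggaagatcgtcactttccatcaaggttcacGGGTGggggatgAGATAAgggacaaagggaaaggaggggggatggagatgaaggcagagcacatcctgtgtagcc
Myh7b (chr2:155610993-155611211, plus strand): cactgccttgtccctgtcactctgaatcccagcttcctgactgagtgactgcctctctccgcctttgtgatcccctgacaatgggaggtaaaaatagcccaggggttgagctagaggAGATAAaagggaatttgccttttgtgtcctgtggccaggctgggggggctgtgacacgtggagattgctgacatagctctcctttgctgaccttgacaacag
C2cd4a (chr9:67832331-67832580, minus strand): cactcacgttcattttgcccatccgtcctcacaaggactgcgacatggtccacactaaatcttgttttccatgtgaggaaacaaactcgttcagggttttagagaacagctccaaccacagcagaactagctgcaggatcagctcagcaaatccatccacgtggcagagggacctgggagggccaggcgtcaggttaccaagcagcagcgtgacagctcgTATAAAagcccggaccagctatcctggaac

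The letters AGATAA began 131 bases before the start site in Nts and 133 bases before it in Myh7b, and 10.3% of 27025 mouse promoters held them within 250 bases. The AP-1 letters of Nts occur in 6.87% of promoters and TATAAA, here in C2cd4a, in 13.0%. CACCC, which is in 51.3% of promoters, was the one motif of the search found in Rnf128 and Ankrd36. The letters CCGGAAG (ETS) and TGACGTCA (CRE) were also searched and matched in none of the 5 windows. The arm of miR-499 taken from the 5′ side of its hairpin lies within Myh7b at chr2:155622893-155622913, shown with its seed (bases 2 to 8) in capitals. The microRNA itself was not analysed here.
mmu-miR-499-5p: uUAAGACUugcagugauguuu

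Libraries held 72902118 to 79258116 counts, so a library at 0 counts allows up to 3 counts, or 0.0379 to 0.0406 CPM in the controls. CPM are counts divided by the library total and multiplied by the same constant in every library. Transcripts of Xist, which silences an X chromosome in females, reached 1513 CPM in mutant 1, 580.1 CPM in mutant 2 and 0.586 CPM in mutant 3, and the controls had 0.423 to 0.663 CPM. Only mutant 3 therefore had the Xist level of the controls, and values for it alone are given below. The Y-linked gene Ddx3y had 3, 2 and 4633 counts in mutants 1, 2 and 3 and 4254 to 4885 counts in the controls. By Xist and Ddx3y, mutants 1 and 2 were female and mutant 3 and the controls male, so sex and group are partly mixed. In bulk RNA, fewer cells of a type cannot be told apart from less RNA per cell.

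**Figure D1:**
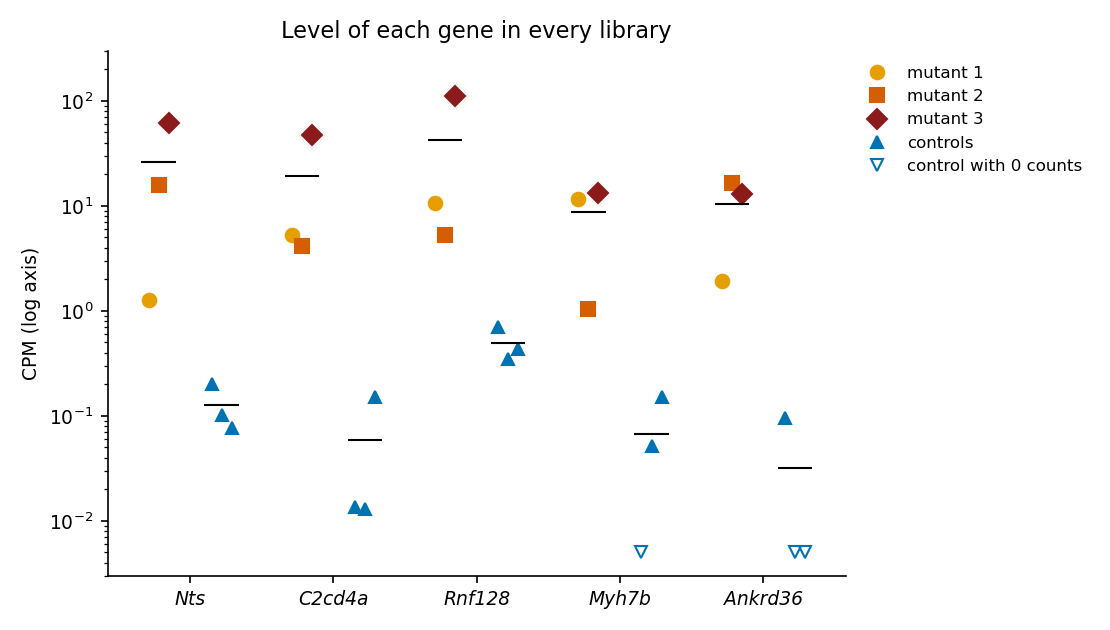
CPM of the 5 genes in each library on a log axis, mutants on the left and controls on the right of each gene, with lines at the group means and open triangles for controls with 0 counts (placed near the foot of the axis). Every mutant lies above every control for each gene, and mutant 3 is far above mutants 1 and 2 for C2cd4a and Rnf128.

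Nts (ENSMUSG00000019890, chromosome 10, 102481756 to 102490486) had 93, 1185 and 4741 counts in mutants 1, 2 and 3, against 15, 8 and 6 counts in the controls. These are 1.28, 15.9 and 61.8 CPM in the mutants and 0.203, 0.103 and 0.0757 CPM in the controls. The 3 mutants stood far apart from each other, and the lowest of them was still 6.28 times the highest control. The group levels were 26.3 ± 31.6 CPM in mutants and 0.127 ± 0.0671 CPM in controls (mean ± SD, n = 3 each), a log2 fold change of 7.66.

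C2cd4a (ENSMUSG00000047990, chromosome 9, 67830489 to 67832330) had 387, 310 and 3662 counts in mutants 1, 2 and 3, against 1, 1 and 12 counts in the controls. The lowest mutant, at 4.17 CPM, was 27.5 times the highest control, at 0.151 CPM, the widest gap among the 5 genes. Mutants 1 and 2 lay close together and mutant 3 stood apart at 47.7 CPM. The log2 fold change was 8.26, with 19.1 ± 24.8 CPM in mutants and 0.0593 ± 0.0798 CPM in controls. Control 3 held 12 of the 14 control counts, and without it the log2 fold change was 10.28.

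Rnf128 (ENSMUSG00000031438, chromosome X, 139563316 to 139673145) had 773, 396 and 8550 counts in mutants 1, 2 and 3, against 52, 27 and 34 counts in the controls. It was the best measured of the 5 in controls, at 0.346 to 0.704 CPM, and reached 111 CPM in mutant 3, the highest CPM of the 5 there before length is considered. That level placed Rnf128 at rank 1988 among all genes of mutant 3, and at rank 15398 to 16892 in the controls. The group means were 42.4 ± 59.8 CPM in mutants and 0.493 ± 0.187 CPM in controls, a log2 fold change of 6.38. Without mutant 3 the log2 fold change was 4.03, with mutants 1 and 2 at 10.6 and 5.32 CPM.

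Myh7b (ENSMUSG00000074652, chromosome 2, 155611212 to 155634307) had 847, 78 and 1026 counts in mutants 1, 2 and 3, against 0, 4 and 12 counts in the controls. Mutants 1 and 3 were near each other at 11.6 and 13.4 CPM, and mutant 2 stood lower at 1.05 CPM. The group means were 8.68 ± 6.66 CPM in mutants and 0.0676 ± 0.0770 CPM in controls, a log2 fold change of 6.95. Trpc4ap, which overlaps Myh7b on the other strand, was at 149 to 159 CPM in mutants and 176 to 192 CPM in controls. The overlap is confined to the gene ends: Trpc4ap starts at 155634271 and Myh7b, with 6634 exon bases, ends at 155634307. Because the strand setting of the counting is not known, reads of that short stretch may be shared. Trpc4ap was lower in each mutant than in each control and did not pass (log2 -0.25 ± 0.15, adjusted p = 0.286 by edgeR).

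Ankrd36 (ENSMUSG00000020481, chromosome 11, 5569684 to 5689337) had 140, 1237 and 986 counts in mutants 1, 2 and 3, against 7, 0 and 0 counts in the controls. Mutants 2 and 3 were close at 16.6 and 12.8 CPM, and mutant 1 was lower at 1.92 CPM. The group means were 10.5 ± 7.64 CPM in mutants and 0.0316 ± 0.0547 CPM in controls, a log2 fold change of 8.35. All 7 control counts came from control 1, so the size of the fold rests on that library.

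The control counts are few, so the folds are loosely set. Summed over the libraries of each group, the ratio of mutant to control was 88.7 for Rnf128 (95% counting interval 73.7 to 108) and 126 for Myh7b (77.3 to 220.5). It was 214 for Nts (149 to 320), 321 for C2cd4a (191 to 588) and 348 for Ankrd36 (169 to 867). The interval of Myh7b overlaps those of the other genes, and those of Nts, C2cd4a and Ankrd36 overlap each other. The interval of Rnf128 lies below those 3. All these intervals cover counting error only and leave out the spread between animals, so they do not put the folds of the genes in order.

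Of 19573 genes tested, 18% had all mutants above all controls, as all 5 genes did by the way they were chosen. Controls averaged under 1 CPM for 4960 tested genes, of which 679 had all mutants higher. Among these 679 the median log2 fold change was 1.98, and 36 genes reached 6 or more. By that measure Ankrd36 ranked 12, C2cd4a 13, Nts 17, Myh7b 24 and Rnf128 30 of 679. The 5 genes are thus among these 36.

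**Figure D2:**
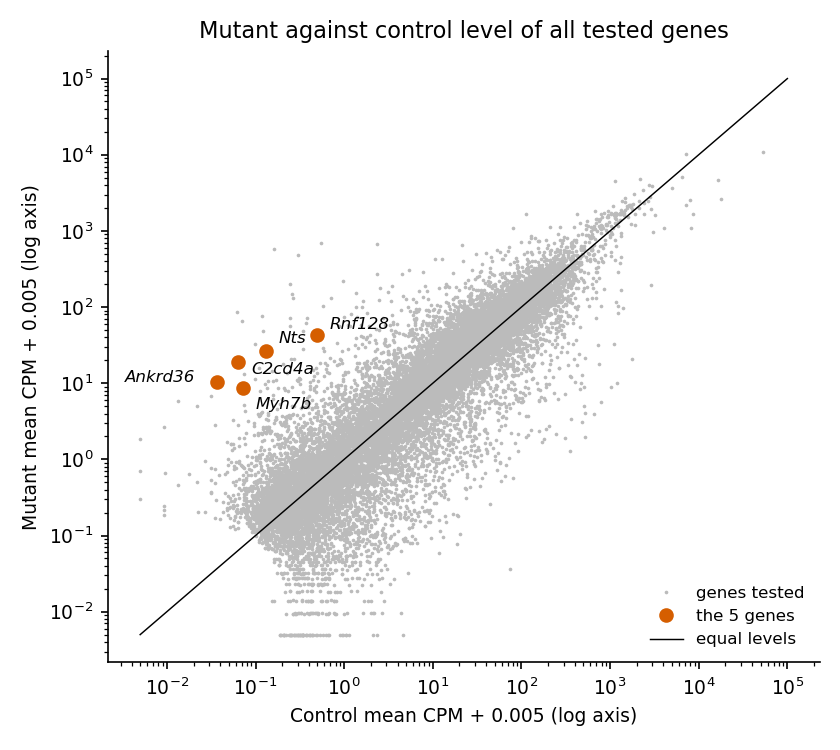
Mean CPM in mutants (vertical) against mean CPM in controls (horizontal) of the 19573 genes tested, on log axes with 0.005 added, with a line at equal levels. The 5 genes lie among those along the upper left edge, below 1 CPM in controls and between 8.68 and 42.4 CPM in mutants.

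The 5 genes differed in which mutant carried them. Mutant 3 held 78.2% of the summed mutant CPM of Nts, 83.4% of that of C2cd4a and 87.5% of that of Rnf128. Myh7b was shared by mutants 1 and 3, at 44.6% and 51.3%, with 4.03% in mutant 2. Ankrd36 was shared by mutants 2 and 3, at 53.0% and 40.9%, with 6.12% in mutant 1. The highest mutant exceeded the lowest by 48.4 times for Nts, 20.9 times for Rnf128, 12.7 times for Myh7b, 11.4 times for C2cd4a and 8.66 times for Ankrd36. Among the 679 near-silent genes with all mutants higher, the median of that ratio was 2.58. Their median log2 fold change of 1.98 was below that of each of the 5 genes, so they are not matched for fold. Mutant 3 was the highest mutant for 223 of them, mutant 1 for 306 and mutant 2 for 150.

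**Figure D3:**
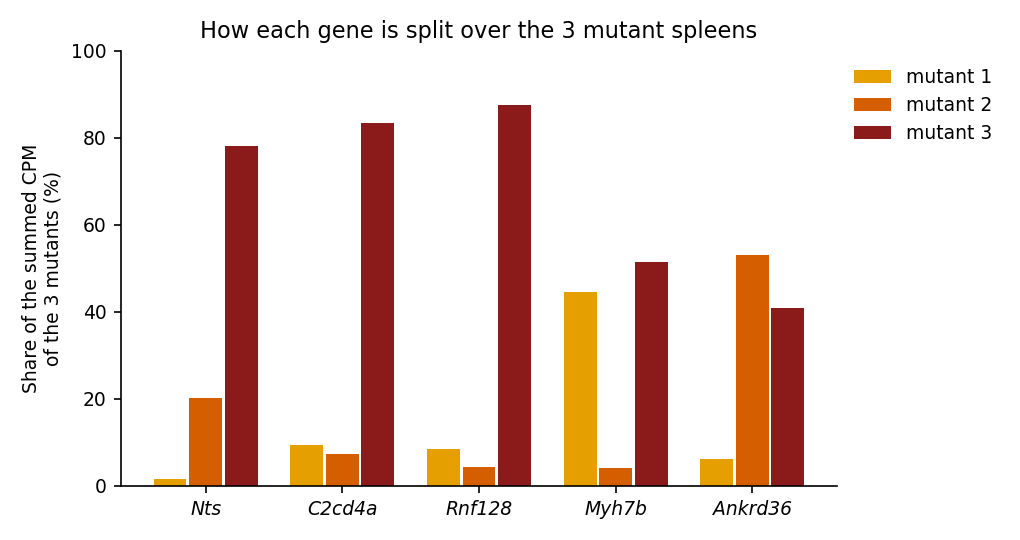
Share of the summed CPM of the 3 mutants that came from each mutant (percent, bars from 0) for the 5 genes. Mutant 3 takes 78.2% to 87.5% of Nts, C2cd4a and Rnf128, whereas Myh7b is split between mutants 1 and 3 and Ankrd36 between mutants 2 and 3.

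Mutant 3 alone, the one mutant with a control-like Xist level, was 486 times the control mean for Nts, 805 times for C2cd4a and 226 times for Rnf128. For Ankrd36 and Myh7b it was 407 and 198 times the control mean. Rnf128 lies on the X chromosome, and its lowest values among mutants were in the 2 spleens with high Xist. The lowest mutant values of Nts and C2cd4a, on chromosomes 10 and 9, were in the same spleens. The part of sex in the level of Rnf128 was not tested. Mutants 1 and 2 were also above each control for all 5 genes, with ratios to the control mean that were lowest for Nts in mutant 1, at 10.04, and for Rnf128 in mutant 2, at 10.8.

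Levels of different genes were compared per kilobase of exon. In mutants the order was Nts at 21.1 ± 25.3, C2cd4a at 13.7 ± 17.8, Rnf128 at 12.3 ± 17.3, Ankrd36 at 2.01 ± 1.46 and Myh7b at 1.31 ± 1.005 CPM per kb (mean ± SD, n = 3). No neighbours in that order differed by more than their spread. In mutant 3 the first 3 genes stood at 49.5, 34.2 and 32.2 CPM per kb and the last 2 at 2.46 and 2.01. The control means of the 5 genes were between 0.00605 and 0.142 CPM per kb.

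Marker genes of the tissues these genes are known from were mostly low in all libraries. For the counts of markers and list genes called, the share of all 19573 genes tested was 5.08% higher and 6.9% lower. Of 13 islet and enteroendocrine markers, 9 were in the table, summing to 0.417 to 0.547 CPM in mutants and 0.950 to 1.73 CPM in controls. Of the 2 tested, Scg5 fell, and at 0.642 to 1.38 CPM it made up most of the control sums. Chgb did not pass, at 0.137 to 0.202 CPM in mutants and 0.0505 to 0.103 CPM in controls. The hormone genes Pyy, with 9, 2 and 2 counts, and Ppy, with 3, 0 and 23 counts in mutants 1, 2 and 3, had 0 counts in the controls, and Chga and Neurod1 were at no more than 0.137 CPM in any library. Striated muscle markers (11 of 11) summed to 33.4 to 67.9 CPM in mutants and 32.1 to 40.6 CPM in controls, with 1 of 6 tested higher. That marker, Tnni3, was at 27.1 to 65.1 CPM in mutants and 14.2 to 20.5 CPM in controls. Mb and Myl3, of heart and slow muscle, stayed under 0.03 CPM in every library. Neuron markers (9 of 9) summed to 9.61 to 12.2 CPM in mutants and 21.98 to 26.3 CPM in controls, with 1 of 7 tested higher (Rbfox3) and 1 lower (Stmn2). The part of such cells in the levels of the 5 genes was not tested.

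Blood marker lists differed between the same mutants. Megakaryocyte markers, 3 of 8 of which rose, summed to 3152, 1099 and 4633 CPM in mutants 1, 2 and 3, against 351 to 652 CPM in controls. Stem and progenitor markers summed to 1272, 79.2 and 294 CPM in the mutants and 122 to 125 CPM in controls, with 1 of 8 lower and the others not past the threshold. Erythroid markers, 2 of 8 of which rose, summed to 743, 4359 and 3442 CPM in the mutants and 1155 to 2022 CPM in controls. Neutrophil markers, 3 of 8 of which rose, summed to 542, 1652 and 1084 CPM in the mutants and 146 to 240 CPM in controls. Monocyte and macrophage markers summed to 188, 7082 and 486 CPM in the mutants and 621 to 862 CPM in controls. The erythroid, neutrophil and monocyte lists were lowest among mutants in mutant 1, as Ankrd36 and Nts were. Mast cell and basophil markers summed to 308, 32.9 and 109.6 CPM in the mutants and 38.8 to 47.1 CPM in controls, with 1 of 7 tested lower (Cma1). Kit, at 127, 29.2 and 108 CPM in mutants 1, 2 and 3, and Fcer1a, at 169, 0.0941 and 0.0261 CPM, made up most of the mutant sums. Endothelial markers summed to 709, 461 and 854 CPM in the mutants and 585 to 662 CPM in controls, with 1 of 10 higher (Egfl7) and 1 lower (Pecam1). The endothelial, megakaryocyte and stem cell sums were lowest among mutants in mutant 2, as Myh7b, C2cd4a and Rnf128 were. The mast cell sum was lowest there through Kit alone, and all other markers of that list were lowest among mutants in mutant 3. Cd79a, a subunit of the B-cell receptor, fell to 7.53 to 10.7 CPM in mutants, against 943 to 1115 CPM in controls (log2 -6.83 ± 0.30, adjusted p = 0.000537 by edgeR). The part of cell composition in the level of the 5 genes was not tested.

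The nearest coding genes on either side of each gene were tested because the choice of the 5 did not use them. Of 20 neighbours, 18 were in the table and 14 passed the expression filter. Of these, 2 rose and the other 12 did not pass, with a median log2 fold change of 0.51, beside 0.10 over all genes, where 5.08% of genes were called higher (edgeR, Benjamini-Hochberg adjusted p, threshold 0.05).

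D330045A20Rik, a coding gene that ends 8.73 kb before the GENCODE start of Rnf128 on the same strand (chromosome X, 139480367 to 139554582), had a rise of similar size. The promoter window searched for Rnf128 ended at 139610619, inside the GENCODE gene, so the RefSeq start used there lies farther from D330045A20Rik. D330045A20Rik had 808, 115 and 1503 counts in mutants 1, 2 and 3, against 15, 15 and 5 counts in the controls. As for Rnf128, mutant 3 was the highest and mutant 2 the lowest of the mutants. The levels were 10.7 ± 9.02 CPM in mutants and 0.153 ± 0.0779 CPM in controls (log2 6.08 ± 1.11, adjusted p = 0.0245 by edgeR). Without any single control it no longer passed, at a log2 fold change of 5.70 to 6.33. The genes on the far side of Rnf128 did not pass: Tbc1d8b, 11.9 kb away, was at 5.82, 5.89 and 16.0 CPM in the mutants and 5.59 to 9.92 CPM in controls (adjusted p = 0.681).

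**Figure D4:**
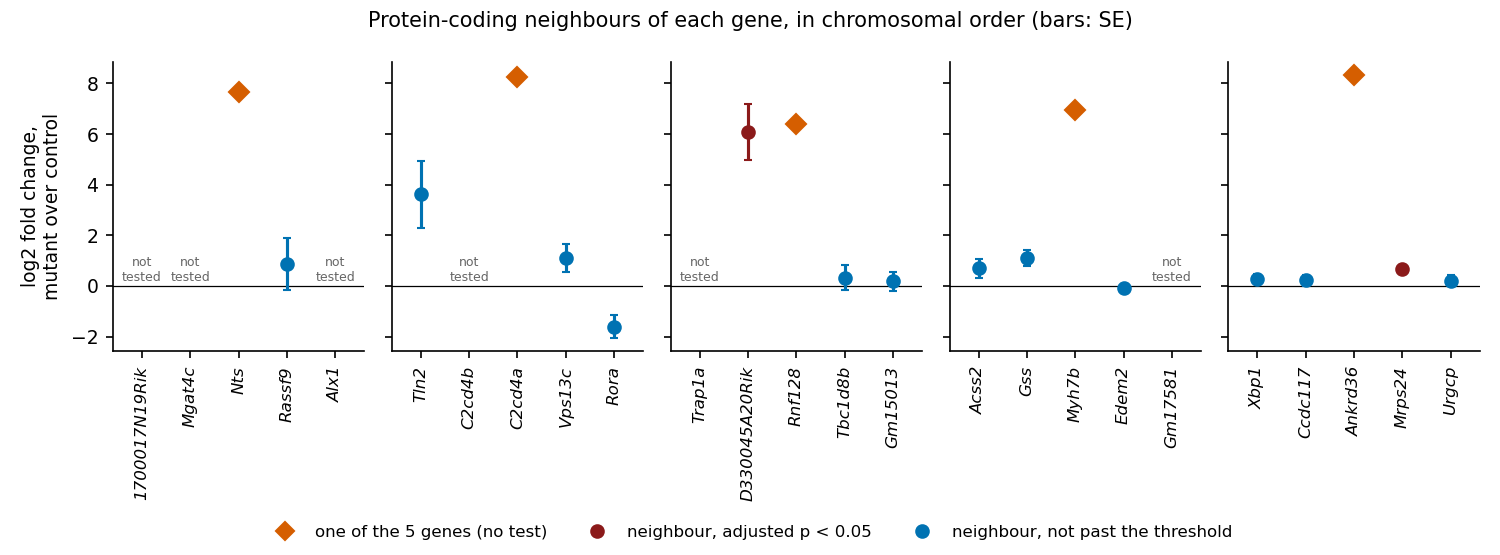
Fitted log2 fold change, mutant over control, of each of the 5 genes (diamonds, no test) and its 2 nearest coding genes on each side in chromosomal order (circles with SE). D330045A20Rik, beside Rnf128, stands at 6.08, and the next highest neighbour is Tln2, at 3.61, which did not pass.

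Mrps24, a mitochondrial ribosomal protein gene 14.6 kb from Ankrd36, rose to 66.4 ± 8.68 CPM in mutants, against 41.5 ± 1.97 CPM in controls (log2 0.68 ± 0.16, adjusted p = 0.0435 by edgeR). Its call was lost without mutant 3 or any single control, and also with upper-quartile scaling, library totals only or no expression filter. On the other side of Ankrd36, Ccdc117 and Xbp1 had log2 fold changes of 0.22 and 0.29, below the threshold of the test (adjusted p = 0.509 and 0.296). Urgcp, the second gene after Mrps24, was at 0.21 ± 0.23 (adjusted p = 0.573).

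Beside C2cd4a, Vps13c lies 8.07 kb away and was at 17.0, 41.7 and 84.0 CPM in mutants 1, 2 and 3, against 18.2 to 27.3 CPM in controls (adjusted p = 0.228). Its highest value was in mutant 3, as for C2cd4a, and mutant 1 was below the controls. Tln2 was highest in mutant 2 instead, at 42.3 CPM against 1.03 and 5.08 CPM in mutants 3 and 1, against 1.16 to 1.59 CPM in controls (adjusted p = 0.1298). Rora had a log2 fold change of -1.61 ± 0.46 (adjusted p = 0.0723). C2cd4b, the paralog 69.6 kb from C2cd4a, had 30, 1 and 0 counts in mutants 1, 2 and 3 and 8, 5 and 1 counts in the controls. C2cd4a was thus at 3662 counts in mutant 3, where C2cd4b was at 0.

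Around Nts, Mgat4c had 45 of its 46 mutant counts in mutant 1, where Nts was lowest, and 1700017N19Rik had 4 counts in all, so neither was tested. Rassf9, 21.7 kb away, had 1, 33 and 39 counts in mutants 1, 2 and 3 and 12 to 15 in controls (adjusted p = 0.5995). Around Myh7b, Gss, an enzyme of glutathione synthesis, was at 19.9 to 39.9 CPM in mutants and 11.7 to 13.3 CPM in controls (log2 1.10 ± 0.32, adjusted p = 0.0736). Acss2 and Edem2 had log2 fold changes of 0.70 ± 0.38 and -0.07 ± 0.14 (adjusted p = 0.256 and 0.773). Among the neighbours of Rnf128, Gm15013, which lies within Tbc1d8b on the other strand, stood at 0.18 ± 0.38 (adjusted p = 0.774 by edgeR). Trap1a, on the other side of Rnf128, had 91, 10 and 0 counts in mutants 1, 2 and 3 and 9 in the controls. Alx1 and Gm17581 were not analysed here.

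Of the receptors of neurotensin, Ntsr1 and Ntsr2 were close to absent. Ntsr1 had 4 counts, all in mutant 1, and Ntsr2 had 2 counts, both in mutant 2, with 0 counts in the controls for both. Sort1 (sortilin), which also binds neurotensin, was at 48.6 to 98.1 CPM in mutants and 33.0 to 36.0 CPM in controls (log2 1.21 ± 0.31, adjusted p = 0.0575). Thop1, an endopeptidase that cleaves neurotensin, was the 1 of 8 tested genes of the list that rose, to 51.9 ± 18.3 CPM in mutants, against 14.7 ± 0.326 CPM in controls (log2 1.81 ± 0.28, adjusted p = 0.0172). Nln, another neurotensin-cleaving peptidase, was at 24.0 to 25.8 CPM in mutants and 17.4 to 17.6 CPM in controls (adjusted p = 0.110). The prohormone convertase gene Pcsk1 had 0 counts in the mutants and 4 to 17 in the controls, and the most abundant gene of the list, Sorl1, did not pass (log2 -1.53 ± 1.02, adjusted p = 0.350).

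Among other myosin heavy chains, 3 of 8 tested fell and 5 did not pass, beside 6.9% lower over all genes. The closest relatives of Myh7b in heart and slow muscle were near 0: Myh6 had 8, 0 and 1 counts in mutants 1, 2 and 3 and 0 in the controls, and Myh7 had 2, 3 and 0 counts in the mutants and 0, 2 and 9 in the controls. Myh11, the smooth muscle chain, fell to 5.68 ± 3.56 CPM in mutants, against 40.1 ± 6.05 CPM in controls (log2 -2.78 ± 0.55, adjusted p = 0.0299). Myh14 fell too (log2 -2.61 ± 0.42, adjusted p = 0.0183), as did Myh8, with 2 counts over the mutants and 141 over the controls (adjusted p = 0.0234). Myh10, a non-muscle chain, was at 6.10, 96.0 and 254 CPM in the mutants and 18.7 to 21.6 CPM in controls (adjusted p = 0.175). Myh9, the most abundant chain, was at 604 to 1021 CPM in mutants and 1053 to 1250 CPM in controls (adjusted p = 0.172).

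Of 12 genes of T-cell anergy and GRAIL control, 4 fell and 8 did not pass, beside 6.9% lower over all genes. Cd79a and 2 of 8 T-cell markers fell as well, and the part of cell composition in this count was not tested. Dgka, a diacylglycerol kinase of anergic T cells, fell to 61.6 ± 25.5 CPM in mutants, against 326 ± 17.2 CPM in controls (log2 -2.41 ± 0.33, adjusted p = 0.0133). Egr3, an anergy transcription factor, fell to 0.997 ± 0.698 CPM in mutants, against 18.7 ± 2.70 CPM in controls (log2 -4.19 ± 0.80, adjusted p = 0.0274). Nfatc1 and Ikzf1, lymphocyte transcription factors, fell by 1.89 ± 0.29 and 0.80 ± 0.17 on the log2 scale. Dgkz, the most abundant gene of the list over all 6 libraries, was at 186 to 486 CPM in mutants and 238 to 249 CPM in controls (adjusted p = 0.376 by edgeR). In controls alone, Ikzf1 and Dgka were higher than Dgkz. Otub1 and Usp8, which act on GRAIL directly, had log2 fold changes of 0.28 and 0.22 (adjusted p = 0.316 and 0.504). T-cell markers (8 of 8) summed to 34.6, 295 and 27.3 CPM in mutants 1, 2 and 3 and 675 to 856 CPM in controls. Cd4 alone was at 197 CPM in mutant 2, above its 85.0 to 107 CPM in controls. All other markers of the list were below every control in mutant 2. Cd3e, a T-cell receptor subunit, was at 1.51, 17.7 and 1.43 CPM in mutants 1, 2 and 3 and 74.9 to 100.5 CPM in controls (adjusted p = 0.0909). Rnf128 was highest in mutant 3, at 111 CPM, where the T-cell marker sum was lowest. In mutant 1, with a sum close to that of mutant 3, Rnf128 was at 10.6 CPM.

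In the family of membrane-anchored RING ligases to which GRAIL belongs, 1 of 8 tested members fell and 7 did not pass, a share near the 6.9% of all genes. That member was Rnf167, also the most abundant over all 6 libraries. Rnf167 was at 134 ± 27.6 CPM in mutants and 240 ± 6.45 CPM in controls (log2 -0.83 ± 0.18, adjusted p = 0.0378 by edgeR). Its call was lost with library totals only or no expression filter. Rnf43 was highest in mutant 3, at 21.95 CPM, as Rnf128 was, but at 1.82 and 4.33 CPM in mutants 1 and 2 it lay below the controls, at 8.86 to 10.4 CPM. Of 41 other tested Ankrd genes, chosen by symbol, 1 rose and 1 fell, beside 5.08% and 6.9% of all genes. These were Ankrd13b, at 76.5, 10.02 and 51.9 CPM in mutants 1, 2 and 3 and 5.39 to 7.16 CPM in controls (log2 2.89 ± 0.69, adjusted p = 0.0477), and Ankrd44 (log2 -2.34 ± 0.55, adjusted p = 0.0453). Both calls were lost with no expression filter, and that of Ankrd13b also with upper-quartile scaling or limma-voom. The most abundant, Ankrd13a, was at 286 to 744 CPM in mutants and 233 to 246 CPM in controls (adjusted p = 0.134).

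The list medians were 0.12 for the neurotensin list, -2.69 for myosins, 0.03 for the RING ligases, -0.60 for the anergy list and 0.11 for the Ankrd genes, beside 0.10 over all genes tested. The RING ligase median was -0.09 with upper-quartile scaling and -0.32 with limma-voom, and without mutants 1 and 2 it was 0.42 and -0.35. The neurotensin median was -0.24 with limma-voom, 0.55 with no expression filter, and -0.09 and -0.14 without mutants 2 and 3. The myosin median was -1.50 with no expression filter and -1.55 by DESeq2. All 11 list genes past the threshold lost their call when any single control was left out, and without mutant 3 so did Ikzf1, Myh11, Ankrd13b and Ankrd44. Ankrd13b and Ankrd44 also lost it without mutant 1.

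**Figure D5:**
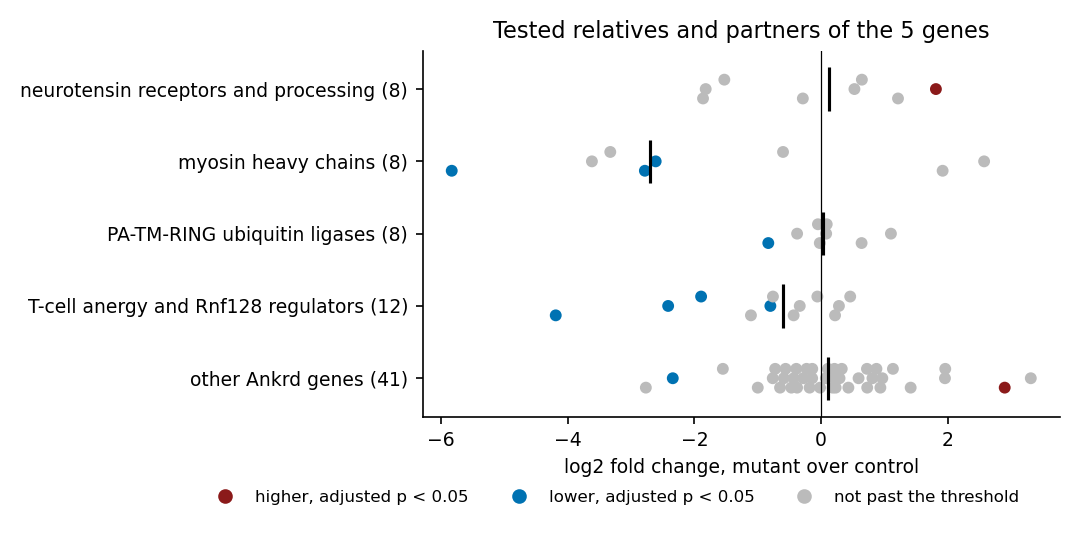
Log2 fold change, mutant over control, of the tested genes of 5 lists related to the 5 genes, with the number tested in brackets and a black bar at the list median. Genes past the adjusted p threshold of 0.05 are red where higher (Thop1 and Ankrd13b) and blue where lower (9 genes), and the others are grey.

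The likeness of 2 genes was measured as the Euclidean distance between their log2 CPM over the 6 libraries, each centred on its mean, which mixes the step between groups with differences between mutants. Rnf128 had the closest partner of all, Alox5, the enzyme that starts leukotriene synthesis, at a distance of 1.13. Alox5 was at 41.7, 50.3 and 446 CPM in mutants 1, 2 and 3 and 2.25 to 2.96 CPM in controls. Bex4 (distance 2.08) and Irx3, a homeobox factor (2.10), followed, and Bex4 was at 16.9, 21.9 and 437 CPM in the mutants. All 3 shared the high value of mutant 3.

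Myh7b was nearest to Foxf2, a forkhead factor (distance 2.02), Gdf3, a TGF-beta family ligand (2.11), and Crisp2, a gene of sperm (2.78). Gdf3 was at 200.5, 33.3 and 130 CPM in mutants 1, 2 and 3 and 1.34 to 1.79 CPM in controls, low in mutant 2 like Myh7b. C2cd4a was nearest to Irx3 (2.70), Foxf2 (2.86) and Cntn3, a contactin (2.99). Irx3 was at 0.713, 1.12 and 6.71 CPM in the mutants and at most 0.0757 CPM in controls.

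With the 5 genes themselves left out, Nts was nearest to Ugt8a, a galactosyltransferase of myelin lipids (2.65), Alox5 (2.73) and Saa3, an acute phase protein (3.21). Saa3 was at 0.933, 48.1 and 12.4 CPM in mutants 1, 2 and 3 and 0.139 to 0.308 CPM in controls. Ankrd36 was nearest to Stfa1, a cysteine protease inhibitor (3.61), Saa3 (3.82) and Alox5 (4.02), and none of these was as near to it as Nts, at 2.77. Among the 5, Myh7b and Ankrd36 were farthest apart, at 6.08. These distances describe 6 libraries in 2 groups, and no test was made of them.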

How the data were processed

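RNA-seq was carried out on spleen pieces of 3 mutant and 3 WT mice, and groups were taken from the genotype label. Total RNA was poly-A selected and made into strand-marking libraries, per the labels' protocols. The authors deposited whole-number counts per Ensembl gene for 31771 identifiers, with no normalization. Per the submitters' processing notes, STAR 2.5.3a, limma, mm10 and GRCm38 were used, with no role stated for any. Which tool counted reads, with which strand setting, annotation or filter, is not given in the sources used here. Replicate numbers follow accession order and pair no animals. Nothing states how the animals were related, so p-values measure the spread between these 6 spleens.

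Symbols matched 31669 identifiers, and positions came from GENCODE M21 on GRCm38. CPM were computed from the deposited counts without further scaling. edgeR 4.0.16 in R 4.3.3 was fitted with TMM factors, its expression filter by group, robust quasi-likelihood tests and Benjamini-Hochberg adjustment over 19573 genes, with a threshold of 0.05. Each SE was obtained by dividing the log2 value by the root of its F statistic. The procedure was tested on simulated data. The 5 genes, the gene lists and the tests were chosen with earlier results of these data known. Named genes were the 5, up to 4 genes past the threshold and the most abundant gene over all 6 libraries of each list, and 2 coding neighbours on each side. Also named were the 3 genes nearest in pattern, defining marker genes, Xist and Ddx3y. Patterns used TMM-scaled log2 CPM with a prior count of 2, leaving out Y-linked genes, lymphocyte receptor segments and predicted genes. Trpc4ap and other list members given with values (such as Sort1, Nln, Ntsr1, Ntsr2, Pcsk1, Myh6, Myh7, Myh10, Otub1, Usp8 and Rnf43) fall outside that rule and were chosen after their values were seen. Planned comparisons of protein sequences were not run. Of the marker lists, those of other cell types not named in the results are not reported here. Poisson and ratio intervals are exact at 95% and cover counting error only.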

Additional observations from a re-analysis of the deposited data

How the results depend on the processing

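The 5 genes were chosen for being raised in the mutants, which largely fixes the sign of their change in advance. Their log2 fold changes stayed positive under all 14 alternatives. With single libraries left out they ranged from 6.15 to 8.24 for Nts, 6.33 to 10.28 for C2cd4a, 4.03 to 6.90 for Rnf128, 6.38 to 8.24 for Myh7b and 7.77 to 12.67 for Ankrd36. The value of 12.67 is not a measured fold: the controls left without control 1 held 0 counts, and the prior count of the fit sets it. Leaving out libraries gave 4 to 2794 genes higher and 119 to 3137 lower over all genes, 0 to 7 higher and 0 to 19 lower in the related lists, and 0 to 4 higher and 0 to 1 lower among neighbours. Over all genes, 6, 4 and 8 were higher without controls 1, 2 and 3, and 1780, 2794 and 877 without mutants 1, 2 and 3. The counts with all libraries were 995 and 1351, 2 and 9, and 2 and 0. DESeq2 gave 2444 and 2640, 6 and 16, and 4 and 1. Mutant 3 alone against the controls, assumed to vary as they do, gave 5602 and 5864, 21 and 30, and 9 and 1. The higher list genes were 1 by limma-voom, with no expression filter and with upper-quartile scaling. The higher neighbours were 1 with library totals only, no expression filter and upper-quartile scaling, and the lower were 1 by limma-voom. The cause of these shifts was not tested. Upper-quartile scaling moved the median of all genes to 0.00, against 0.10, and limma-voom to -0.02. No paired analysis was possible because the labels give no shared replicate numbers.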
